A study of Homo sapiens with 18 samples.

Results

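The response of MDA-MB-231 cells to hypoxia in the presence of paclitaxel was compared with their response to hypoxia in the presence of epirubicin, gene by gene. MDA-MB-231 is an established line of human breast cancer cells, so all values come from 1 line. RNA from 18 cell samples was measured, each on 1 Affymetrix array of the human U133 Plus type, and the comparison rests on 12 of them, 3 in each of 4 conditions. In “H tax” the cells received 50 µM paclitaxel under 1% O2, and in “N tax” 50 µM paclitaxel under normoxia. In “H epi” they received 10 µM epirubicin under 1% O2, and in “N epi” 10 µM epirubicin under normoxia. The other 6 arrays, 3 under hypoxia (“H”) and 3 under normoxia (“N”) with no drug, are the control. In all 6 conditions the incubation lasted 16 hours in medium without serum. The hypoxia effect with a drug is the mean log2 value under hypoxia minus that under normoxia, and the quantity described here, called the difference, is the hypoxia effect with paclitaxel minus the hypoxia effect with epirubicin. A difference of 1 thus means that the ratio of hypoxia to normoxia signal was 2 times higher with paclitaxel than with epirubicin. It can come from a rise with paclitaxel, a fall with epirubicin, or both. Because each drug was used at 1 dose and 1 time, differences between the drugs cannot be told apart from differences in how strongly the cells were affected.

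Under low oxygen the hypoxia-inducible factors (HIF) escape degradation and switch on genes for glycolysis, angiogenesis and adaptation to scarce oxygen. Paclitaxel binds and stabilizes microtubules and holds cells in mitosis. Epirubicin, an anthracycline, intercalates into DNA, traps topoisomerase II and interferes with RNA synthesis. Genes already known to respond to HIF and genes of glycolysis were set aside as lists, and the description below is of the genes beyond them.

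Arrays were assigned to conditions by their titles. The titles and source names disagreed for all 6 arrays numbered 3, whose source names give another drug treatment, and nothing in the labels settles which is right. The main counts are therefore also given for arrays 1 and 2 only. That leaves 2 arrays per condition and makes the test harder to pass. Probe sets called there kept their direction in the third arrays more often by title than by source name. Of 159 probe sets whose difference was higher with arrays 1 and 2 alone, 151 (95%) were also higher in the third arrays grouped by title, against 46% of all probe sets tested. Of 40 that were lower, 29 (72.5%) were lower in the third arrays, against 53.2% of all. With the third arrays grouped by source name instead, those numbers were 10 (6.29%, against 57.9% of all) and 6 (15%, against 41.4% of all). The study calls the 3 replicates biological and mentions independent experiments, while the array labels name no separate cultures, and p-values measure the spread between these samples.

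The arrays with epirubicin stood apart from the others in 2 measures of quality. The median signal of the tested probe sets was 7.32 to 7.45 log2 units on the paclitaxel arrays and 6.68 to 7.12 on the epirubicin arrays. The 3′ minus 5′ difference of the ACTB control probe sets was 0.11 to 0.43 with paclitaxel and -0.31 to -0.18 with epirubicin, while that of GAPDH was 0.36 to 0.49 on all 18 arrays. On the drug arrays numbered 3, grouped by title, the ACTB value was 0.43 in H tax and 0.24 in N tax. It was -0.18 in H epi and -0.21 in N epi. N epi array 2 lay farthest from the mean of its condition, with a root mean square deviation of 0.44 against 0.13 to 0.29 for the other arrays. Their part in the results below was not tested, and fewer surviving cells cannot be told apart from less RNA per cell. Of 12 genes typical of MDA-MB-231 cells, 11 were present on all 12 drug arrays and SPARC on none, and of 10 luminal genes 6, EPCAM and ERBB2 among them, were present on all 12 and CDH1, FOXA1 and PGR on none. Of 13 markers of other cell types 8 were present on none, among them the leukocyte marker PTPRC and the endothelial markers VWF and CDH5, and 4 (APOA1, COL1A1, KRT10 and the endothelial marker PECAM1) were present on all 12. Of these 4, APOA1 (3.34 to 3.53 log2 units) and PECAM1 (3.78 to 4.62) lay near the low end of the scale. COL1A1 was at 6.63 to 7.79 and KRT10 at 12.04 to 13.11.

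Among 24400 probe sets tested, the difference was higher for 524 (2.15% of those tested) and lower for 363 (1.49%), by limma with Benjamini-Hochberg adjusted p under 0.05. Hypoxia raised 601 probe sets (2.46%) and lowered 856 (3.51%) with paclitaxel, and raised 232 (0.951%) and lowered 1087 (4.45%) with epirubicin. The share of higher among the called probe sets depended on the scaling of the arrays. It was 59.1% for the difference, 41.2% with paclitaxel and 17.6% with epirubicin as deposited, against 54.2%, 61.7% and 41% after median centring and 56.2%, 50% and 32.6% after quantile normalization. Median centring moved the median over all tested probe sets by more than 0.1 with epirubicin, to 0.15 log2 units against 0.00 as deposited.

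With each gene represented by 1 probe set, 305 of 11272 genes had a higher difference (2.71%) and 129 a lower one (1.14%). The 242 genes of the lists of known hypoxia targets and glycolysis held 82 of the higher ones and 3 of the lower ones. PFKFB4, a kinase that sets the level of a glycolytic activator, is an example. Its hypoxia effect was 4.26 log2 units with paclitaxel and -0.45 with epirubicin, which did not pass the test (adjusted p = 0.177 by limma). With epirubicin its signal lay near the presence threshold, a linear signal of 8.84, so a fall could hardly be measured there. It was 3.38, 3.09 and 3.21 log2 units in H epi and 3.98, 3.87 and 3.20 in N epi. The means were 8.12 in N tax and 8.97 in N. Beyond those lists, 223 of 11030 genes were higher (2.02%) and 126 lower (1.14%), and these 349 genes are the subject of what follows. All 349 had the same sign in each of the 3 array numbers, 346 kept it with arrays 1 and 2 only, and 41 passed the test there. The calls were made on these same arrays, so the shared signs are not separate evidence. Another probe set was tested for 181 of the 349 genes. Of these 333 other probe sets, 286 (85.9%) had the same sign, 56 were called in the same direction and 1 in the opposite one. The counts moved by over 1.5 times when single arrays were left out. The higher count was 141, 132 and 114 without H tax 2, H tax 3 and N tax 1, and 348 and 361 without H epi 1 and N epi 3. The lower count was 68, 73, 50, 59 and 70 without H tax 2, H tax 3, N tax 1, N tax 3 and H epi 3.

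The 349 genes were sorted by the drug with which the hypoxia effect itself passed the test. Of the 223 higher genes, 60 rose under hypoxia with paclitaxel and did not pass the test with epirubicin, 136 fell with epirubicin and did not pass it with paclitaxel, 8 did both, and 19 passed neither test. Of the 126 lower genes, 94 fell with paclitaxel alone, 19 rose with epirubicin alone, 1 did both and 12 did neither. A gene in a class named for 1 drug alone is one whose effect with the other drug did not pass the threshold, and whether the effects differ is what the difference itself tests.

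**Figure D1:**
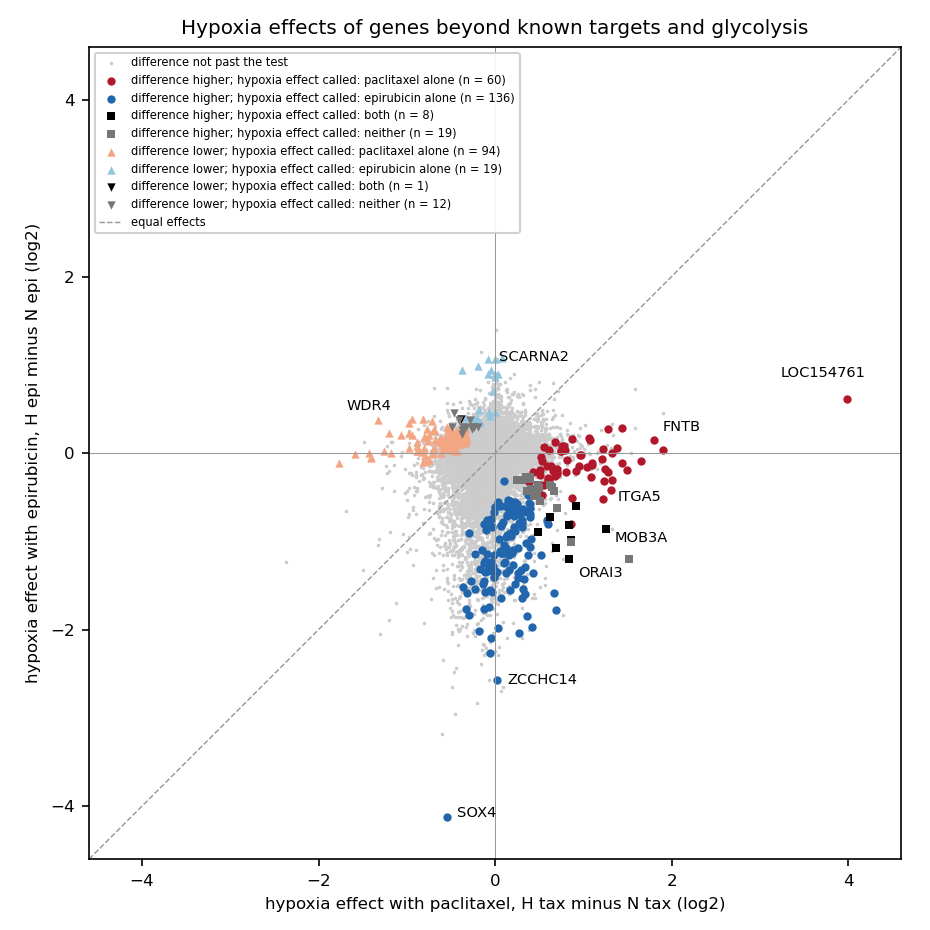
Hypoxia effect with paclitaxel (x axis, log2) against that with epirubicin (y axis, log2) for 11030 genes beyond the known hypoxia targets and glycolysis; each point is 1 gene, colours and shapes mark the classes, and the dashed line marks equal effects. The largest class, 136 genes in dark blue, lies below the horizontal zero line and near the vertical one, while the 60 genes in red lie to the right.

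Beyond the lists hypoxia raised 1.86% of all genes with paclitaxel and lowered 3.52%, and with epirubicin raised 0.598% and lowered 6%. The 60 genes that rose under hypoxia with paclitaxel alone had a median hypoxia effect of 0.86 with paclitaxel and -0.15 with epirubicin. Without drug, 51 of them (85%) also rose under hypoxia, against 6.02% of all genes beyond the lists, with a median effect of 0.88. Their median level was 9.19 in H tax, 8.22 in N tax, 7.92 in H epi and 8.10 in N epi, against 9.46 in H and 8.53 in N. N epi array 2 was the highest N epi array for 22 of the 60 genes (36.7%), against 38.7% of all genes. The call of the difference remained for 50 of the 60 without N epi array 2, and for 12 with arrays 1 and 2 only. Counted anew, the class held 34 genes without N tax 1, 97 after quantile normalization and 164 with array weights.

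LOC154761, a transcribed pseudogene, had the largest difference of this class. Its signal was 7.47, 6.66 and 6.4 log2 units in H tax against 2.93, 2.93 and 2.71 in N tax, where all 3 arrays were under the presence threshold, a linear signal of 8.84. In H epi it was 4.69, 2.97 and 3.65, against 3.09, 3.21 and 3.19 in N epi, so that the H epi and N epi arrays overlapped. Hypoxia raised it at least 13-fold with paclitaxel (adjusted p = 1.33e-05), and the effect of 0.61 seen with epirubicin did not pass the test (adjusted p = 0.443). The difference was 3.38 ± 0.55 (SE, n = 3 arrays per condition, adjusted p = 0.00291).

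ITGA5, the α5 chain of the fibronectin receptor integrin, had the smallest error of the leading genes. Its signal was 10.59, 10.67 and 10.62 in H tax, against 9.14, 9.33 and 8.93 in N tax. In H epi it was 8.65, 8.58 and 8.39, against 8.53, 8.91 and 8.75 in N epi. The paclitaxel arrays separated by oxygen, and the epirubicin arrays overlapped. The hypoxia effect was 1.49 ± 0.13 with paclitaxel (adjusted p = 4.44e-06), whereas that with epirubicin was -0.19 (adjusted p = 0.486), and the difference was 1.68 ± 0.18 (SE, adjusted p = 1.11e-04). With arrays 1 and 2 only it was 1.5 (adjusted p = 0.0281).

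PPP1R13L encodes iASPP, an inhibitor of p53. Its signal was 10.59, 10.62 and 10.56 in H tax against 9.14, 9.28 and 9.69 in N tax, and 7.74, 7.35 and 7.85 in H epi against 7.77, 8.63 and 8.09 in N epi. The hypoxia effect was 1.22 with paclitaxel and -0.52 with epirubicin (adjusted p = 0.139), and the difference was 1.74 ± 0.27 (SE, adjusted p = 0.00215). COXFA4L3, listed earlier as C15orf48 and related to a subunit of cytochrome c oxidase, had 10.04, 9.90 and 10.25 in H tax against 7.86, 8.67 and 8.70 in N tax. In H epi it had 8.61, 8.60 and 8.39, and in N epi 8.38, 9.12 and 8.35. Its hypoxia effect was 1.65 with paclitaxel (adjusted p = 0.00116) and -0.09 with epirubicin, with a difference of 1.74 ± 0.35 (SE, adjusted p = 0.0147).

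FNTB encodes the β subunit of farnesyltransferase, the enzyme that attaches farnesyl to proteins such as RAS. It had 8.46, 7.78 and 8.03 in H tax against 6.26, 5.99 and 6.62 in N tax, and 4.90, 4.49 and 4.36 in H epi against 4.52, 4.33 and 4.45 in N epi. The hypoxia effect was 1.80 ± 0.20 with paclitaxel (adjusted p = 6.04e-05), 0.15 with epirubicin (adjusted p = 0.775) and 2.77 without drug. The remaining leaders of the class were CFAP410, a cilium protein, with a difference of 1.87 ± 0.32, the long noncoding RNA LINC01588 with 1.73 ± 0.31, and AMPD3, an AMP deaminase, with 1.66 ± 0.32 (SE). For CFAP410, 3 other probe sets had differences of -0.43 to 0.44 and none was called. AMPD3 was at 9.72, 9.14 and 9.38 in H tax against 8.70, 8.07 and 8.91 in N tax, and at 4.90, 4.75 and 5.21 in H epi against 5.90, 5.73 and 5.64 in N epi. Its effect of -0.80 with epirubicin lay just outside the threshold (adjusted p = 0.0543). ITGA5 was the one of these 8 genes that passed the test with arrays 1 and 2 only, and the adjusted p of the others lay between 0.0531 for PPP1R13L and 0.14 for COXFA4L3.

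**Figure D2:**
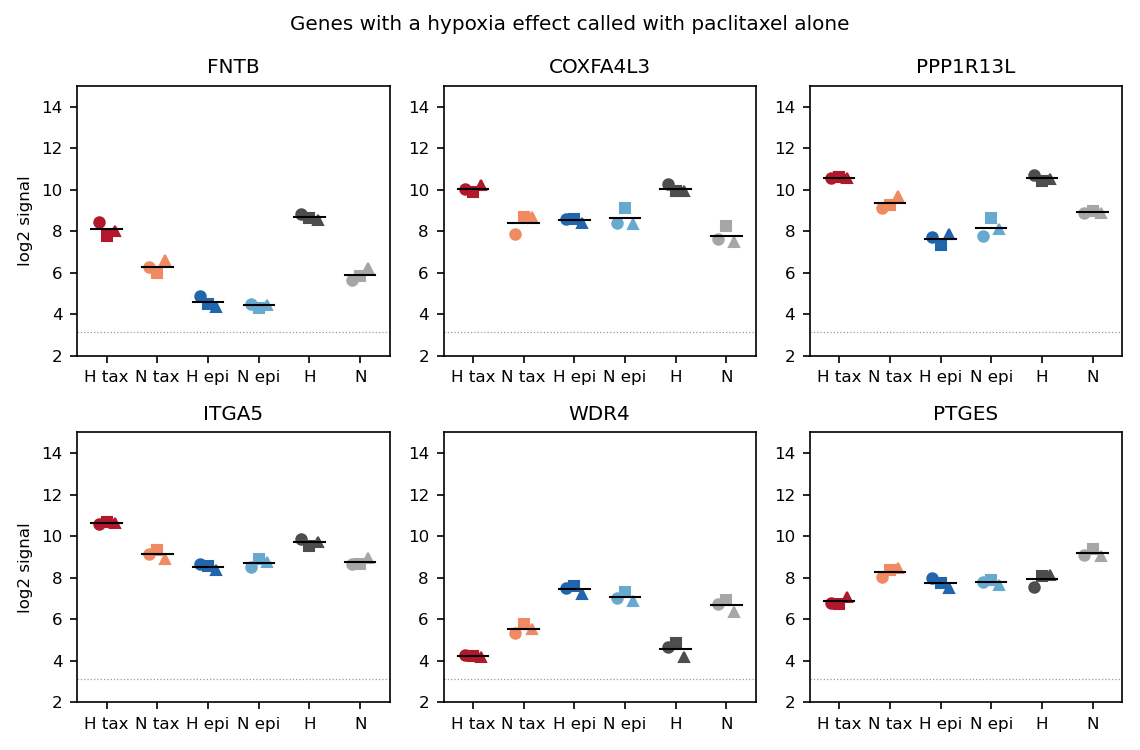
Log2 signal (y axis) of 6 genes whose hypoxia effect passed the test with paclitaxel alone, in each array of the 6 conditions (x axis); circles, squares and triangles are arrays 1, 2 and 3, lines are means and the dotted line is the presence threshold. In H tax, FNTB, COXFA4L3, PPP1R13L and ITGA5 lie above their N tax values and WDR4 and PTGES below them, and the H epi and N epi means lie close together.

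HIF binds the bases ACGTG or GCGTG. The 250 bases before the RefSeq start of 3 of these genes, of MOB3A and of WDR4, which are described below, are shown to let the reader see where such bases lie. They are read on the gene's own strand from GRCh38.p14, at chr15:45430360-45430609 (plus strand) for COXFA4L3, chr19:45406362-45406611 (minus) for PPP1R13L, chr12:54419267-54419516 (minus) for ITGA5, chr19:2096327-2096576 (minus) for MOB3A and chr21:42879540-42879789 (minus) for WDR4. Capitals mark ACGTG or GCGTG on either strand, so that CACGT and CACGC are the reverse-strand forms, and neighbouring matches can overlap.
COXFA4L3: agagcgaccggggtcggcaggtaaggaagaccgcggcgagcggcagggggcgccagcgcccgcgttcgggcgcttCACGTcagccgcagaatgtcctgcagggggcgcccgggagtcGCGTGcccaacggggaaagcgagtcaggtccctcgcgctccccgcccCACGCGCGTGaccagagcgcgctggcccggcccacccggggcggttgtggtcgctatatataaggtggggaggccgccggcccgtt
PPP1R13L: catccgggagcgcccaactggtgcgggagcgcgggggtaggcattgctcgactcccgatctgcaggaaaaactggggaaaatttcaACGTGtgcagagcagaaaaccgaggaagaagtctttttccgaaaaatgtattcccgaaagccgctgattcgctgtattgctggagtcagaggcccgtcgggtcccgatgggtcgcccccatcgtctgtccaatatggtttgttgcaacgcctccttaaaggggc
ITGA5: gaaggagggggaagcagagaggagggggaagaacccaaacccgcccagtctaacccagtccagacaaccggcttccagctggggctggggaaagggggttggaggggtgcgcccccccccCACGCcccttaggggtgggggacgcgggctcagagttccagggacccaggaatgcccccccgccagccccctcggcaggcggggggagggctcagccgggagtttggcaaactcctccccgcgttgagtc
MOB3A: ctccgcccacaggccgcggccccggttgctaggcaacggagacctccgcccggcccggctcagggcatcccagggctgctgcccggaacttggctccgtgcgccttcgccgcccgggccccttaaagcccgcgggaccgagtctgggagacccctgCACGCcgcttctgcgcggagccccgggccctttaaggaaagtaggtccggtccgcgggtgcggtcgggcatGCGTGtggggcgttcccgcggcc
WDR4: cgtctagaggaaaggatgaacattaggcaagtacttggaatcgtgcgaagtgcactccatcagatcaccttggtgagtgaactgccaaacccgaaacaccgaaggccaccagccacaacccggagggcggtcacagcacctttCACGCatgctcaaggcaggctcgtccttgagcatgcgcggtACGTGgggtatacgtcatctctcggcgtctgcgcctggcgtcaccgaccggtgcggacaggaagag
COXFA4L3 held 1 ACGTG and 3 GCGTG, PPP1R13L 1 ACGTG, ITGA5 1 GCGTG, MOB3A 2 GCGTG, and WDR4 1 of each. At least 1 of the 2 motifs occurred in 27 (60%) of the 45 promoters of genes that rose with paclitaxel alone, in 58% of 9275 promoters of all tested genes, and in 43.1% of the 27305 promoters of the RefSeq table. GCGTG occurred in 16 of the 45 (35.6%), in 46% of all tested genes and in 31.9% of the whole table. ACGTG occurred in 14 of the 45 (31.1%), in 23.9% of all tested genes and in 18.7% of the whole table. It also occurred in 23 (21.1%) of 109 promoters of genes that fell with epirubicin alone, in 20 (25.3%) of 79 promoters of genes that fell with paclitaxel alone, in 5 (38.5%) of 13 of genes that rose with epirubicin alone, and in 31 (43.7%) of 71 promoters of the higher genes on the known lists. A match describes the letters of the window and is not a binding site, and these shares were not tested.

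The 136 genes that fell under hypoxia with epirubicin alone had a median hypoxia effect of -1.10 with epirubicin and 0.14 with paclitaxel. Without drug their median effect was -0.02, and 15 rose (11%) and 10 fell (7.35%), against 6.02% and 15.1% of all genes beyond the lists. Their median level was 8.97 in H tax and 8.89 in N tax, 6.08 in H epi and 7.10 in N epi, against 8.89 in H and 9.10 in N. Over all genes beyond the lists the medians were 8.36 in H tax, 8.44 in N tax, 7.79 in H epi and 7.95 in N epi. N epi array 2 was the highest N epi array for 116 of them (85.3%), against 38.7% of all genes, and H epi array 2 the lowest H epi array for 98 (72.1%), against 55.3%. Without N epi array 2 the call of the difference remained for 95 of the 136. It remained without both arrays numbered 2 with epirubicin for 79, and with arrays 1 and 2 only for 19. Counted anew, the class held 69 genes without H tax 3, 71 without N tax 1, 83 without H tax 2 and 273 without N epi 3.

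SOX4 and SOX9, transcription factors with an HMG box, were both in this class. SOX4 was at 5.5, 5.62 and 5.05 in H tax against 5.93, 5.78 and 6.10 in N tax. With epirubicin it was under the presence threshold on all 3 H epi arrays (2.83, 2.72 and 2.68) and at 6.05, 8.73 and 5.81 in N epi. It was at least 13.2-fold lower under hypoxia with epirubicin (adjusted p = 6.99e-04), a bound that was 6.89-fold without N epi array 2, and its effect of -0.55 with paclitaxel did not pass the test (adjusted p = 0.662). The difference was 3.57 ± 0.74 (SE, adjusted p = 0.0156), and 2.64 without N epi array 2 (adjusted p = 1.48e-04). With arrays 1 and 2 only it was 4.32 and did not pass the test (adjusted p = 0.112). The other 2 probe sets of SOX4 had 1.5 and 3.96, and 1 was called.

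SOX9 was at 9.86, 9.70 and 10.03 in H tax against 9.81, 10.20 and 9.72 in N tax, and at 6.17, 5.84 and 6.08 in H epi against 7.50, 9.29 and 7.59 in N epi. Its hypoxia effect with epirubicin was -2.09 (adjusted p = 0.00271), and the difference of 2.05 ± 0.46 (SE, adjusted p = 0.0256) was 1.46 without N epi array 2 (adjusted p = 7.72e-04). With arrays 1 and 2 only it was 2.17 and did not pass the test (adjusted p = 0.213). For both genes N epi array 2 was the highest array of its condition, the H epi arrays lay below all N epi arrays, and the H tax and N tax arrays lay within 1 log2 unit of each other for SOX9.

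KRCC1, a lysine-rich coiled-coil protein, had close to the same signal with paclitaxel under both oxygen levels, at 11.59, 11.31 and 11.33 in H tax against 11.19, 10.90 and 11.31 in N tax. In H epi it was at 6.57, 6.56 and 6.59, against 8.53, 9.33 and 7.98 in N epi. The effect with epirubicin was -2.04 (adjusted p = 5.09e-04) and the difference 2.31 ± 0.32 (SE, adjusted p = 9.85e-04). Both other probe sets of the gene were called in the same direction, with differences of 1.99 and 3.11. ST3GAL1, a sialyltransferase of O-glycans, was at 7.80, 8.0 and 7.69 in H tax against 7.18, 6.99 and 7.26 in N tax, and at 3.09, 3.09 and 3.61 in H epi against 4.71, 5.73 and 4.69 in N epi. Its difference was 2.47 ± 0.35 (SE, adjusted p = 0.00106), while its other 2 probe sets had 0.47 and 1.29 and neither was called. THNSL1, a homologue of microbial threonine synthase, followed with 2.38 ± 0.32 (adjusted p = 5.71e-04).

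The other leaders of this class were ZCCHC14, a zinc finger protein, with a difference of 2.60 ± 0.55, NMRK1, a nicotinamide riboside kinase, with 2.21 ± 0.43, and TRIM47, a RING-finger protein, with 2.21 ± 0.52 (SE). TRIM47 lost its call without N epi array 2 (adjusted p = 0.0586 against 0.0313 with it). With arrays 1 and 2 only, ST3GAL1, THNSL1, KRCC1 and TRIM47 passed the test, and ZCCHC14 (adjusted p = 0.113) and NMRK1 (adjusted p = 0.0942) did not. Of this set, ST3GAL1, THNSL1 and KRCC1 passed the test under all 24 alternatives that group arrays by title.

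**Figure D3:**
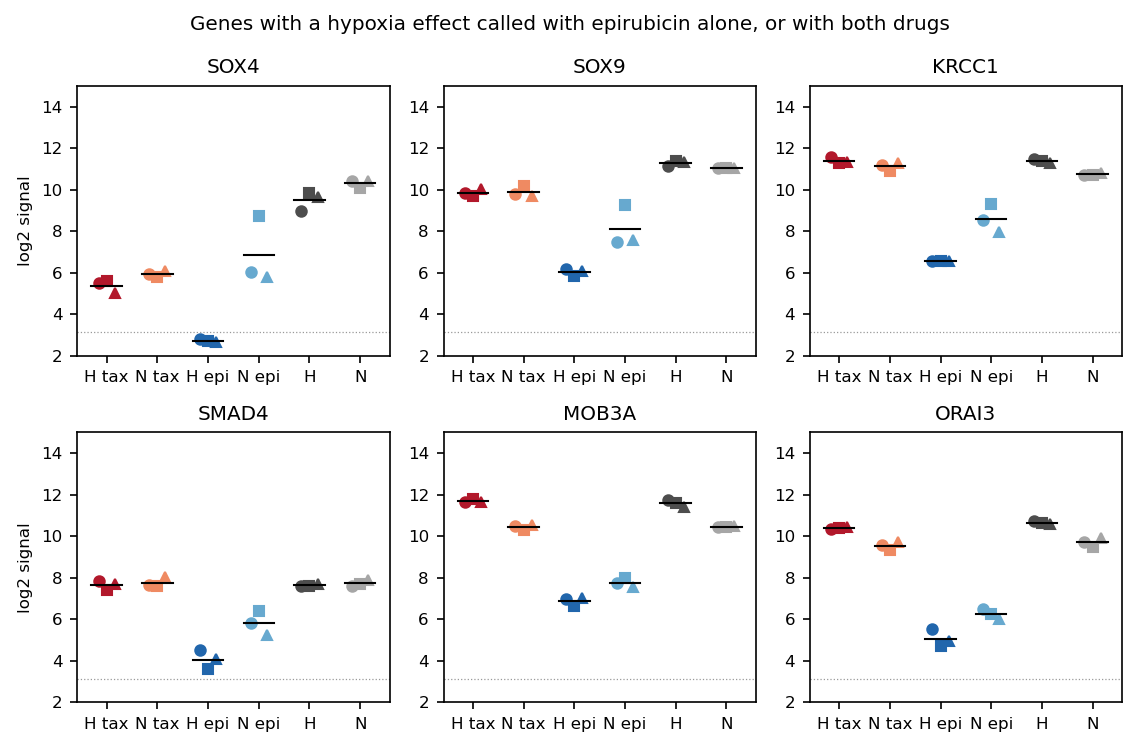
Log2 signal (y axis) in each array of the 6 conditions (x axis) for SOX4, SOX9, KRCC1 and SMAD4, which fell under hypoxia with epirubicin alone, and MOB3A and ORAI3, which rose with paclitaxel and fell with epirubicin. Circles, squares and triangles are arrays 1, 2 and 3, lines are means, the dotted line is the presence threshold, and the square of N epi is the highest N epi array for SOX4, SOX9, KRCC1, SMAD4 and MOB3A.

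Hypoxia moved 8 genes in opposite directions with the drugs, up with paclitaxel and down with epirubicin. They were CCSAP, DIPK2A, MOB3A, MXD3 and ORAI3, and, named after their values were seen, ACTMAP, ARHGAP22 and NAV1. Their median effect was 0.84 with paclitaxel and -0.88 with epirubicin, and 5 of the 8 (62.5%) also rose without drug. The difference of all 8 was still called after quantile normalization and after median centring. It was also called for all 8 without N epi array 2 and without both epirubicin arrays numbered 2. With arrays 1 and 2 only it was called for 3 of the 8. These counts do not recheck the effect with each drug.

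MOB3A, a member of the MOB family of kinase adaptors, had the smallest adjusted p of these. It was at 11.67, 11.79 and 11.65 in H tax against 10.49, 10.31 and 10.54 in N tax, and at 7.0, 6.66 and 7.03 in H epi against 7.73, 7.99 and 7.56 in N epi. No hypoxia array overlapped a normoxia array with either drug, and the directions were opposite. The effect was 1.26 ± 0.13 with paclitaxel (adjusted p = 2.41e-05), -0.86 ± 0.13 with epirubicin (adjusted p = 0.00199) and 1.13 without drug. The difference was 2.12 ± 0.18 (SE, adjusted p = 8.88e-06), and 2.36 with arrays 1 and 2 only (adjusted p = 0.00353). The other probe set of MOB3A had a difference of 0.39 and was not called.

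ORAI3, a store-operated calcium channel, was at 10.35, 10.38 and 10.44 in H tax against 9.56, 9.35 and 9.73 in N tax, and at 5.53, 4.70 and 4.97 in H epi against 6.52, 6.27 and 6.0 in N epi. Its effect was 0.84 with paclitaxel (adjusted p = 0.0145), whereas that with epirubicin was -1.20 (adjusted p = 0.00239), and the difference was 2.04 ± 0.26 (SE). The differences of DIPK2A, CCSAP, a protein of centrioles and spindles, and MXD3, a partner of MAX, were 1.85, 1.77 and 1.38. Of these, ORAI3 (adjusted p = 0.0347) and MXD3 (0.0474) passed the test with arrays 1 and 2 only, and DIPK2A (0.0692) and CCSAP (0.0927) did not. The other probe set of CCSAP had a difference of 0.22 and was not called. The effect of CCSAP with paclitaxel lay just inside the threshold (adjusted p = 0.0496 by limma). Of the genes whose difference passed the test while neither effect did, NOG, a secreted antagonist of bone morphogenetic proteins, had 2.73 ± 0.66 (adjusted p = 0.0342), ATOSB 1.87, TNIP1, an inhibitor of NF-κB signalling, 1.10, and UPP1, a uridine phosphorylase, 1.05. None of these 4 passed it with arrays 1 and 2 only (adjusted p = 0.157 to 0.291), and ATOSB lost its call without N epi array 2 (adjusted p = 0.0522). NOG kept its call without that array, with a smaller difference of 2.11 (adjusted p = 0.0395).

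The 94 genes that fell under hypoxia with paclitaxel alone had a median effect of -0.59 with paclitaxel and 0.13 with epirubicin. Of them, 60 (63.8%) also fell without drug, against 15.1% of all genes beyond the lists, and none rose. Their median level was 8.02 in H tax and 8.62 in N tax, 9.33 in H epi and 9.21 in N epi, against 8.28 in H and 8.97 in N. The call of the difference remained for 86 of the 94 after median centring, and for 54 without N epi array 2. The class held 37 genes when counted without N tax 1, 41 without N tax 3, 42 without H epi 3, 51 without H tax 2, 57 without H tax 3, 62 without N epi 1 and 7 with arrays 1 and 2 only.

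WDR4, a subunit of a tRNA methyltransferase, was at 4.29, 4.22 and 4.18 in H tax against 5.34, 5.79 and 5.55 in N tax. It was at 7.52, 7.62 and 7.21 in H epi against 7.02, 7.33 and 6.89 in N epi. The paclitaxel arrays did not overlap and the epirubicin arrays did. The effect was -1.33 with paclitaxel (adjusted p = 5.69e-04), whereas that with epirubicin was 0.37 (adjusted p = 0.301), and the difference was -1.70 ± 0.26 (SE, adjusted p = 0.00213) and remained -1.70 with arrays 1 and 2 only (adjusted p = 0.0283). Its other probe set had -0.77 and was not called.

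PTGES, the inducible prostaglandin E synthase, was at 6.81, 6.73 and 7.10 in H tax against 8.02, 8.40 and 8.46 in N tax, and at 7.97, 7.74 and 7.49 in H epi against 7.80, 7.89 and 7.67 in N epi. Its effect with paclitaxel was -1.41 and its difference -1.36 ± 0.24 (SE, adjusted p = 0.00675). POFUT3, a fucosyltransferase, had -1.59 ± 0.23 (adjusted p = 0.00132), although it was under the presence threshold on all epirubicin arrays, so no fold is given there. MARS2, which charges mitochondrial tRNA with methionine, had -1.66, USP30, a deubiquitinase of mitochondria, -1.43, PPP2R1B, a scaffold of protein phosphatase 2A, -1.32, KLHL23 -1.31 and PACC1, a proton-activated chloride channel, -1.28. MARS2 too was under the presence threshold on all epirubicin arrays, and its difference was -1.35 with low values raised to the threshold. The other probe set of PTGES had -0.80 and was not called. POFUT3 passed the test with arrays 1 and 2 only (adjusted p = 0.0367) and PTGES (0.0703), MARS2 (0.25), USP30 (0.0678), PPP2R1B (0.122), KLHL23 (0.162) and PACC1 (0.0641) did not.

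Fewer genes rose under hypoxia with epirubicin alone, 19 in all, with a median effect of 0.86, or 0.42 with values under the presence threshold raised to it. Their median level was 4.14 in H tax and 4.06 in N tax, 5.37 in H epi and 4.43 in N epi, near the low end of the scale. PHC1, a polycomb protein, was present under all 4 conditions, at 5.95, 5.98 and 5.94 in H tax against 6.19, 6.48 and 6.33 in N tax, and at 7.55, 7.80 and 7.52 in H epi against 6.68, 6.70 and 6.68 in N epi. Its effect with epirubicin was 0.94 (adjusted p = 6.62e-04) and its difference -1.31 ± 0.16 (SE, adjusted p = 3.02e-04). The small Cajal body RNA SCARNA2 was under the threshold on the paclitaxel arrays and at 5.26, 5.47 and 5.39 in H epi against 4.36, 4.35 and 4.59 in N epi, with a difference of -0.99 ± 0.12. BTBD9, TMEM182, RIMS2, ZNF561-AS1, SDAD1 and SLC6A3 had differences between -1.15 and -0.71. The other probe set of BTBD9 had 0.61, the opposite sign, and BTBD9 (adjusted p = 0.0629), TMEM182 (0.08) and ZNF561-AS1 (0.0673) lost their call without N epi array 2. The other probe set of PHC1 had -0.32 and was not called. Among the 8 named genes of this class SCARNA2 was the one that passed the test with arrays 1 and 2 only (adjusted p = 0.0248). This class held between 7 and 46 genes when single arrays were left out, the fewest without N tax 1 and the most without H epi 1.

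GTF2I, which encodes the transcription factor TFII-I, was the gene that fell with paclitaxel (-0.39) and rose with epirubicin (0.38), with a difference of -0.77 (adjusted p = 0.0104). In the class with neither effect called, MANEA, an endomannosidase, had -0.91, ZDHHC13, a palmitoyltransferase, -0.79, the RNA helicase DDX3X -0.78 and STK4, a kinase of the Hippo pathway, -0.65. ZDHHC13 (adjusted p = 0.0822) and STK4 (0.0627) lost their call without N epi array 2, and GTF2I and these 4 genes did not pass the test with arrays 1 and 2 only (adjusted p = 0.0551 for GTF2I to 0.306 for DDX3X).

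**Figure D4:**
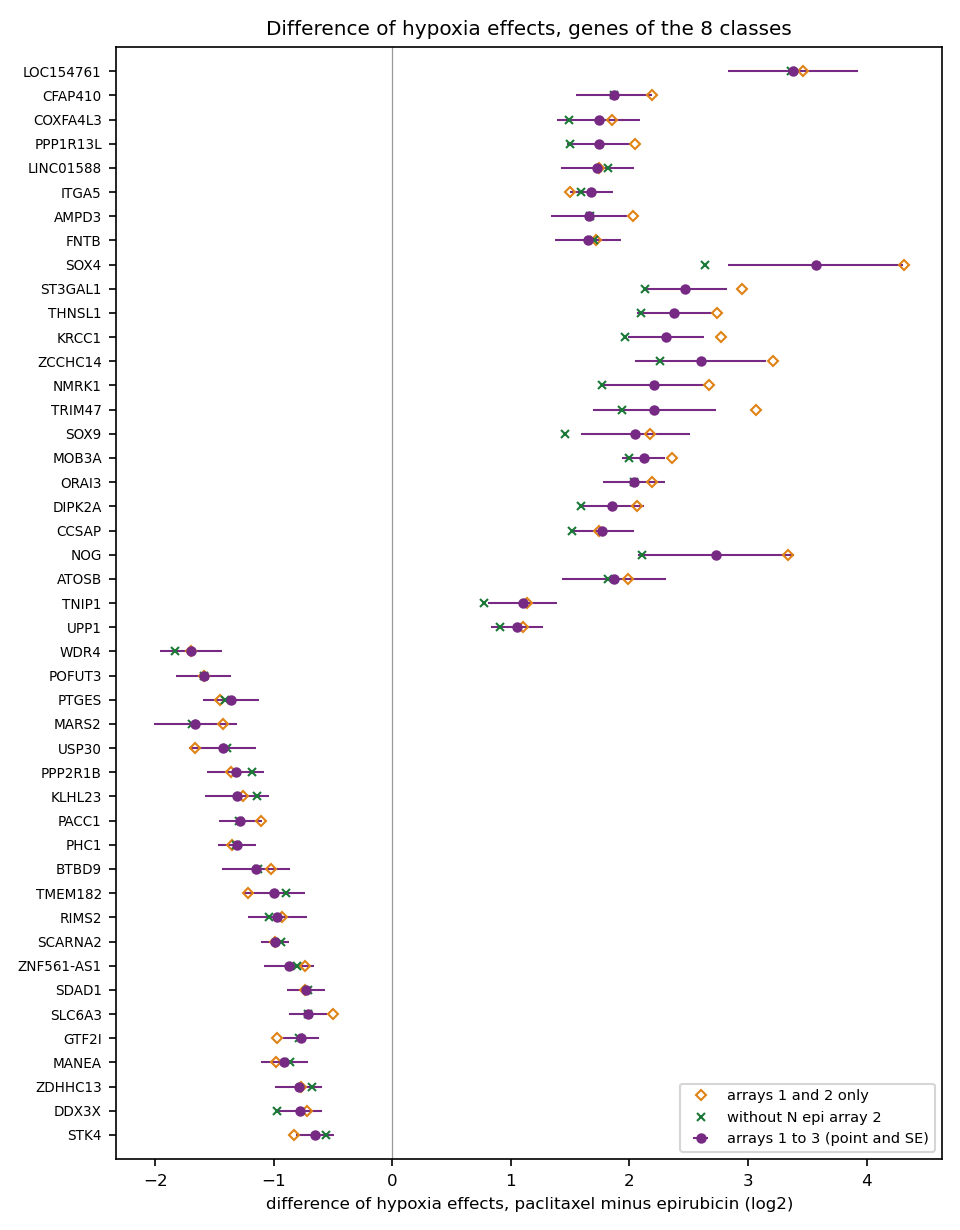
Difference of the hypoxia effects (x axis, log2, paclitaxel minus epirubicin) for 45 genes of the 8 classes, one per line. Filled points with bars are the estimate and its standard error over arrays 1 to 3. Open diamonds use arrays 1 and 2 only and crosses leave out N epi array 2. All estimates of a gene lie on the same side of 0, which the naming rule required of the points and diamonds. The crosses of SOX4 and SOX9 lie at 2.64 and 1.46.

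Outside glycolysis and the known targets, no list of functionally related genes approached the share called among the known hypoxia targets, where 72 of 213 (median difference 0.97) were higher. In 34 lists holding 1721 genes, 27 were higher (1.57%) and 16 lower (0.93%), against 2.02% and 1.14% of all genes beyond the known lists, and 6 and 2 with arrays 1 and 2 only. The median difference over all genes was 0.02. The lists and their members were chosen with earlier results of these data known, so their counts are a description. Beside each count below stand the 2.71% of all genes with a higher difference and the 1.14% with a lower one, and shares of this size say nothing particular about a list.

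Of 54 mitosis genes, 3 had a higher difference and none a lower one, against 2.71% and 1.14% of all genes. AURKA, the mitotic kinase Aurora A, had -0.05 with paclitaxel and -0.75 with epirubicin, SGO2, a protector of centromeric cohesion, 0.23 and -0.63, and CENPF, a kinetochore protein, 0.03 and -0.56. Each fell under hypoxia with epirubicin and did not pass the test with paclitaxel. Without drug, AURKA (-0.66, adjusted p = 6.08e-04 by limma) and CENPF (-0.36, adjusted p = 0.0225) also fell under hypoxia. SGO2 had 0.22 without drug and did not pass the test (adjusted p = 0.207). The other probe set of SGO2 had 0.26 and was not called, and of the other 2 of AURKA (-0.15 and 0.74) 1 was called. CENPF is uncertain, since its other probe sets had differences of -0.91 to -0.09. Its call was lost without N epi array 2 (adjusted p = 0.0664), with a difference of 0.56 against 0.59. Among 52 tubulins and microtubule proteins, TUBGCP2, part of the γ-tubulin complex, rose by 1.38 with paclitaxel against 0.06 with epirubicin, with a difference of 1.33 ± 0.19 (SE, adjusted p = 9.6e-04), while its other 2 probe sets had 0.02 and 0.36 and neither was called. MAP7D1 had 0.12 with paclitaxel and -1.08 with epirubicin, and lost its call without N epi array 2 (adjusted p = 0.0754).

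In TGF-β and BMP signalling, 3 of 42 genes were higher (2.71% of all genes), and 6 fell under hypoxia with epirubicin (5.97% of all genes fell) while none passed the test with paclitaxel (2.64% of all genes rose and 3.49% fell). SMAD4, the shared partner of the receptor-activated SMAD proteins, was at 7.83, 7.42 and 7.68 in H tax against 7.67, 7.61 and 8.05 in N tax, and at 4.52, 3.59 and 4.07 in H epi against 5.82, 6.41 and 5.27 in N epi. Its difference was 1.64 ± 0.36 (SE, adjusted p = 0.021), while its other probe set had 0.19 and was not called. SMAD3, a receptor-activated SMAD, had a difference of 1.37 ± 0.26 (adjusted p = 0.00941), while its other 3 probe sets had 0.13 to 0.62 and none was called. Neither SMAD4 (adjusted p = 0.0832) nor SMAD3 (0.172) passed the test with arrays 1 and 2 only. The third gene was NOG, given above.

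CCL5, a chemokine, led the list of 21 inflammatory cytokines and related genes, in which 2 were higher and 1 lower. It was at 7.08, 7.35 and 7.57 in H tax against 5.79, 6.02 and 6.2 in N tax, and under the presence threshold on all 6 epirubicin and all 6 control arrays. Hypoxia raised it by 1.33 with paclitaxel (adjusted p = 1.15e-05), no fold can be given with epirubicin, and both other probe sets were called too. The difference as fitted was 1.64 ± 0.18 (SE, adjusted p = 1.11e-04), and 1.69 with arrays 1 and 2 only (adjusted p = 0.00921). In the same list IL7R was higher, with 0.93, but lost its call without N epi array 2 (adjusted p = 0.0609), and PTGES was lower. In the NF-κB pathway RELA (0.79), TNIP1 (1.10) and TNIP2 (0.55) of 28 genes were higher, against 2.71% of all genes. RELA and TNIP2 lost their call without N epi array 2, with differences of 0.69 and 0.54 (adjusted p = 0.0611 and 0.0751).

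Of 53 interferon-stimulated genes 2 were higher and 3 lower, against 2.71% and 1.14% of all genes. IRF9, a subunit of the interferon-activated ISGF3 complex, fell by 1.54 under hypoxia with epirubicin (adjusted p = 0.00924) and had 0.32 with paclitaxel. SAMHD1, a dNTP hydrolase, fell by 0.69 with paclitaxel, and TAP2, a peptide transporter of antigen presentation, fell by 0.57. Zinc finger genes of the ZNF series had 2 higher and 4 lower of 350, and matrix and adhesion genes 2 higher, ITGA5 and PLAT, and 1 lower, COL4A1, of 59, against the same 2.71% and 1.14%. The 2 higher ZNF genes, ZNF292 and ZNF395, are on the list of known hypoxia targets, and COL4A1 lost its call without N epi array 2 (adjusted p = 0.0571).

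In 10 lists, with 426 different genes, no member had a difference past the test by limma at its chosen probe set, and 28 were higher and 19 lower at an unadjusted p under 0.05. Over all 801 probe sets of these genes 4 were called higher and 4 lower, and 1 Notch and Wnt gene was called lower with arrays 1 and 2 only. The lists were the integrated stress response (38 genes), chaperones of the endoplasmic reticulum (34), nuclear-encoded respiratory chain subunits (87), DNA repair (55), histones (22), RNA polymerase II control (60), Notch and Wnt (40), antioxidant genes (41), iron handling (20) and immediate early transcription factors (34). The median difference of the last was 1.14, with 31 of 34 members above 0, against 52.2% of all genes. Their median effect was -1.18 with epirubicin and -0.05 with paclitaxel, and 3 of the 34 fell with epirubicin, against 5.97% of all genes. Without N epi array 2, 3 of the 34 had a higher difference.

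**Figure D5:**
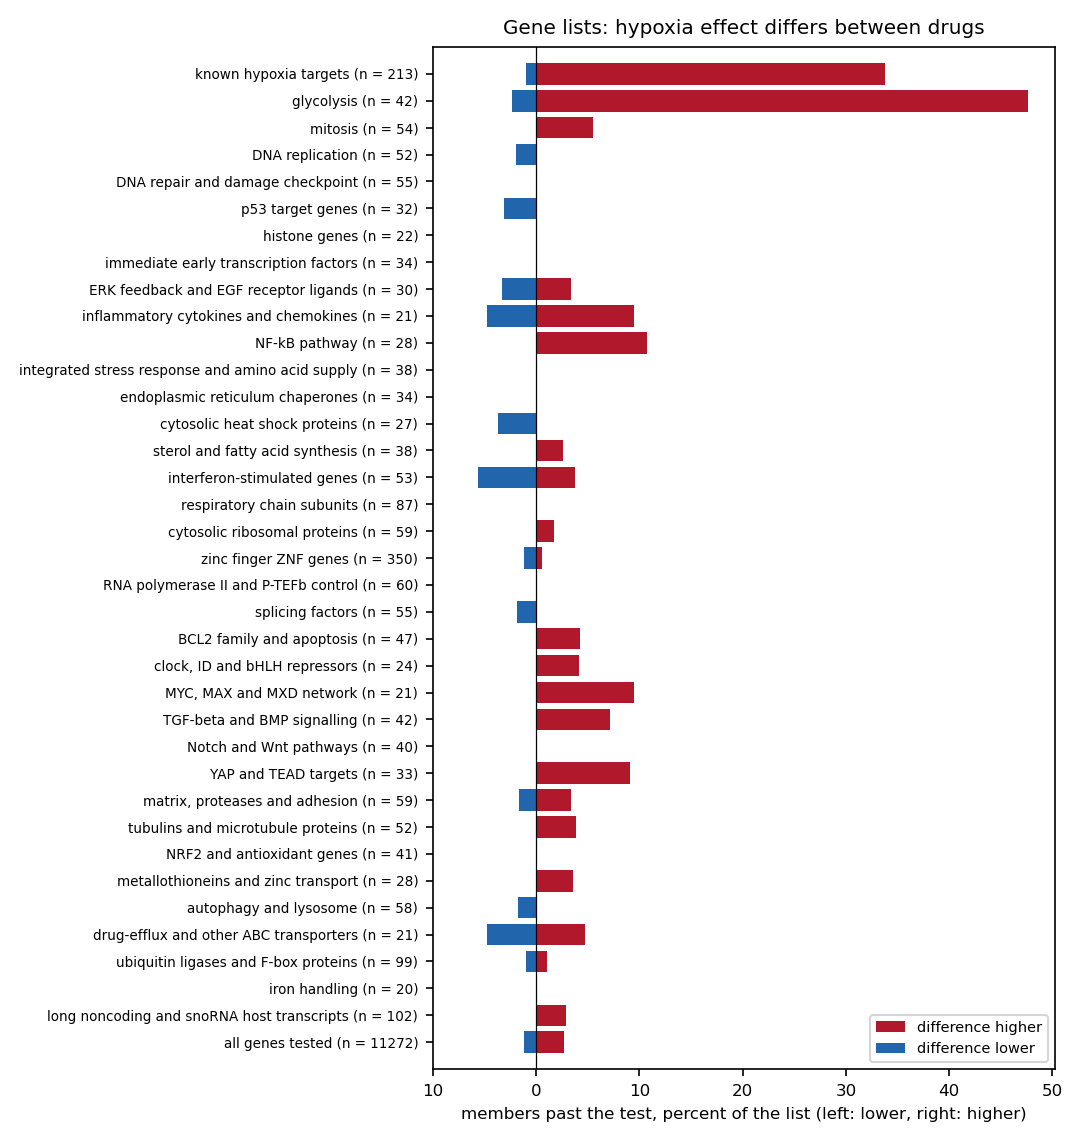
Percent of the members of each list (y axis, n genes tested) whose difference passed the test, higher to the right and lower to the left. Known hypoxia targets and glycolysis stand out with 72 of 213 and 20 of 42 higher, and the bar of all 11272 genes at the bottom gives 2.71% and 1.14%.

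Transcripts encoded in mitochondrial DNA and HIF1AN were looked at after their values were seen. Of 7 mitochondrial transcripts tested, 5 had a higher difference, against 2.71% of all genes. Because the set was picked for its values, this count is a description only. ND2, a subunit of complex I, was at 15.34, 15.29 and 15.30 in H tax against 15.30, 15.25 and 15.17 in N tax, and at 13.24, 12.93 and 13.38 in H epi against 14.73, 14.88 and 14.86 in N epi. It fell by 1.64 ± 0.10 with epirubicin (adjusted p = 2.56e-06), and the difference was 1.71 ± 0.15 (SE, adjusted p = 8.82e-06) and 1.76 with arrays 1 and 2 only (adjusted p = 0.00487). COX2 passed the test there too (adjusted p = 0.00764), and COX3, ATP6 and ND4 did not (0.273, 0.141 and 0.133).

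COX2, the cytochrome c oxidase subunit and not the prostaglandin synthase, was at 15.61, 15.72 and 15.55 in H tax against 15.54, 15.62 and 15.44 in N tax, and at 14.56, 14.54 and 14.76 in H epi against 15.62, 15.64 and 15.73 in N epi, with a difference of 1.14 ± 0.12 (SE, adjusted p = 8.2e-05). The differences of COX3, ATP6 and ND4 were 0.68, 0.66 and 0.61. COX1 had 0.19 (adjusted p = 0.378) and ND6 -0.20 (adjusted p = 0.792), so neither passed the test. For ND2 and COX2 every H epi array lay below every N epi array, and the N epi arrays, number 2 included, lay close together.

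HIF1AN, the asparagine hydroxylase that restrains HIF, was at 8.99, 9.26 and 9.31 in H tax against 9.27, 9.11 and 9.18 in N tax, and at 5.10, 4.43 and 5.40 in H epi against 6.09, 6.54 and 6.33 in N epi. Its difference was 1.35 ± 0.27 (SE, adjusted p = 0.0134), but its other probe sets had -0.19 and -0.07 and were not called, and with arrays 1 and 2 only the difference did not pass the test (adjusted p = 0.097).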

How the data were processed

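Conditions came from array titles. The deposited values are log2 signals, made by the authors with GC-RMA (version not given in the sources used here). They run from 2.23 to 16.6, with 36.5% at the lowest value of the whole data set. The probe sets carry standard Affymetrix names, although the study's methods name AffyProbeMiner definitions. No column was left unused. With 62 control probe sets set aside, testing was limited to probe sets above a linear signal of 8.84 (the methods' presence threshold) on at least 2 of 3 arrays of 1 drug condition, which kept 24400 of 54613. Between 41.4% and 42.6% were present on an array, and 3 arrays per condition limit the precision. Of all probe sets 41097 had 1 gene symbol, 1801 several (not named here) and 11777 none in the platform table. For each gene, the probe set with the largest mean over the 12 drug arrays was used.

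All 18 arrays were fitted in 6 conditions with limma 3.58.1 (R 4.3.3, data.table version 1.17.8; tables with pandas 2.3.3 and numpy 2.4.6), with 12 residual and 2.84 prior degrees of freedom, two-sided tests and Benjamini-Hochberg adjustment over all probe sets at 0.05. The code was tested on simulated data. A fold against arrays all under the threshold is a lower bound, computed against it.

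The comparison, members and lists were chosen with earlier results of these data known. In each class the genes named had 1 symbol, the same sign in 3 array numbers and with arrays 1 and 2 only, and the largest difference with low values raised to the threshold (8 genes, or 4 where both or neither effect was called), with up to 3 called members of each list by adjusted p. Genes of mitochondrial DNA and HIF1AN were added after their values were seen, and promoters were picked among named genes. Alternatives were arrays 1 and 2 only, the third arrays by source name, each drug array left out, the replicate number as a block, other presence filters, low values raised, quantile normalization, median centring, other variance models, array weights, the 12 drug arrays alone and all probe sets of a gene. Leaving out both epirubicin arrays numbered 2, and lists without N epi 2, were added after seeing the data. Promoters are from RefSeq, GRCh38.p14.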

Additional observations from a re-analysis of the deposited data

Results flagged for a closer look

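For every value below, the hypoxia effects with paclitaxel and with epirubicin differed by the test of the difference itself (limma, adjusted p under 0.05), which is what drew attention to it. The difference, paclitaxel minus epirubicin, was higher for 524 probe sets and lower for 363. The ACTB 3′ minus 5′ values, 0.11 to 0.43 with paclitaxel and -0.31 to -0.18 with epirubicin, also separate the drugs, and their part in these results was not tested.

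The hypoxia effects passed the test in opposite directions for 7 of the genes that the naming rule picked, with differences of 2.12 for MOB3A, 2.04 for ORAI3, 1.85 for DIPK2A and 1.77 for CCSAP, 1.38 for MXD3 and 1.86 for ABCB6, and -0.77 for GTF2I. ABCB6 is on the list of known hypoxia targets.

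Genes that rose with paclitaxel alone had differences of 3.38 for LOC154761, 1.87 for CFAP410, 1.74 for COXFA4L3 and 1.74 for PPP1R13L, and of 1.73 for LINC01588, 1.68 for ITGA5, 1.66 for AMPD3 and 1.65 for FNTB. Genes that fell with epirubicin alone had 3.57 for SOX4, 2.60 for ZCCHC14, 2.47 for ST3GAL1 and 2.38 for THNSL1, and 2.31 for KRCC1, 2.21 for NMRK1, 2.21 for TRIM47 and 2.05 for SOX9. Where neither effect passed the test the higher values were 2.73 for NOG, 1.87 for ATOSB, 1.10 for TNIP1 and 1.05 for UPP1.

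Genes that fell with paclitaxel alone had differences of -1.70 for WDR4, -1.66 for MARS2, -1.59 for POFUT3 and -1.43 for USP30, and of -1.36 for PTGES, -1.32 for PPP2R1B, -1.31 for KLHL23 and -1.28 for PACC1. MARS2 and POFUT3 were under the presence threshold on all epirubicin arrays. Genes that rose with epirubicin alone had -1.31 for PHC1, -1.15 for BTBD9, -1.0 for TMEM182 and -0.99 for SCARNA2, and -0.97 for RIMS2, -0.87 for ZNF561-AS1, -0.73 for SDAD1 and -0.71 for SLC6A3. Where neither effect passed the test the lower values were -0.91 for MANEA, -0.79 for ZDHHC13, -0.78 for DDX3X and -0.65 for STK4.

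Among the known hypoxia targets and genes of glycolysis, the differences were 4.90 for MIR210HG, 4.71 for ALDOC, 4.71 for PFKFB4 and 4.43 for ANGPTL4, and 2.65 for PDK1, 1.98 for TNFSF10, 1.79 for ZNF292 and 1.76 for INSIG2. Smaller ones were 1.64 for MXI1, 1.57 for ZNF395, 1.20 for IGFBP3, 0.82 for TGFA and -0.69 for TIGAR. MIR210HG, the host transcript of miR-210, was under the presence threshold on all N tax arrays and rose at least 15.4-fold under hypoxia with paclitaxel.

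Of the other list members, higher differences were 1.86 for IRF9, 1.83 for SLC30A4, 1.64 for SMAD4 and 1.64 for CCL5, then 1.54 for FBXL15, 1.37 for SMAD3, 1.37 for KRT19 and 1.33 for TUBGCP2. Values near 1 were 1.24 for CIART, 1.20 for MAP7D1, 0.97 for RPL39L and 0.93 for IL7R. The smallest higher values were 0.87 for LINC02987, 0.87 for SGO2, 0.79 for RELA, 0.73 for PLAT and 0.70 for AURKA, and 0.67 for VGLL4, 0.64 for TNS3, 0.62 for TRADD, 0.59 for CENPF and 0.55 for TNIP2. Lower differences were -1.18 for EGF, -0.96 for SAMHD1, -0.96 for PIK3R4, -0.69 for COL4A1 and -0.66 for TAP2, and -0.61 for HSPA4, -0.60 for TRA2A, -0.57 for ZNF485, -0.48 for ABCE1 and -0.45 for RPA1. CCL5, CIART, EGF and ZNF485 were under the presence threshold on all epirubicin arrays, and CIART on all N tax arrays as well. With low values raised to the threshold, CCL5 had 1.33, CIART 0.65, EGF -0.91 and ZNF485 -0.51.

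Genes added after their values were seen had 1.71 for ND2, 1.14 for COX2, 0.68 for COX3, 0.66 for ATP6 and 0.61 for ND4, all encoded in mitochondrial DNA, and 1.35 for HIF1AN.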

How the results depend on the processing

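With arrays 1 and 2 only, 159 probe sets had a higher difference and 40 a lower one, 257 and 66 passed with paclitaxel, 94 and 276 with epirubicin, 41 and 11 genes beyond the known lists, and 6 and 2 members of the 34 lists. With the third arrays grouped by source name limma called 0 in each count, and at an unadjusted p under 0.05 it found 23 higher and 21 lower differences, 151 and 78 with paclitaxel and 95 and 209 with epirubicin. Without a presence filter 312 were higher and 221 lower, 105 and 75 genes beyond the lists, and 568 fell with paclitaxel and 507 with epirubicin. Array weights gave 891 and 854, 1593 and 2727 with paclitaxel, and 430 and 297 genes beyond the lists. The 12 drug arrays fitted alone gave 252 and 130, 444 lower with paclitaxel, 56 and 208 with epirubicin, and 81 and 45 genes beyond the lists. With epirubicin 463 rose after quantile normalization and 639 after median centring, which left 416 lower with paclitaxel. Without both epirubicin arrays numbered 2, an alternative chosen after seeing the data, 1320 fell with paclitaxel and 535 with epirubicin. With all probe sets of each gene 34 list members were lower. Leaving out 1 drug array at a time gave 336 to 740 higher and 176 to 452 lower differences, 425 to 710 and 376 to 1103 with paclitaxel, 143 to 361 and 473 to 1648 with epirubicin, and 114 to 361 and 50 to 160 genes beyond the lists. The ends of these ranges lay without N tax 1 (336, 176, 114 and 50), N epi 3 (740, 361, 1648 and 361 genes), N tax 2 (452 and 160), H tax 2 (425), N epi 2 (710, 1103 and 143), N tax 3 (376) and H epi 2 (473). The lists had 31 higher and 19 lower members without N epi 2. Other presence filters, raised low values and trended variance moved no count of the difference by over 1.5 times. The cause was not tested.

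Same-numbered arrays deviated together weakly or not at all, with correlations of -0.11 to 0.34 and 2 of 12 over 0.1. They were 0.09 to 0.34 for H tax with N tax and 0.02 to 0.10 for H epi with N epi. Between the drugs they were -0.11 to 0.05. The main fit did not pair arrays by number. The fit with a replicate block gave 495 higher and 331 lower differences, 621 and 809 probe sets with paclitaxel, 218 and 926 with epirubicin, and 26 and 16 list members. Of 100 genes named, 23 passed the test and kept their direction and call in every alternative but the grouping by source name. Signs turned for SLC6A3 (0.02, adjusted p = 1) and COX1 (0.00, adjusted p = 1) under that grouping and for ND6 without H tax 2 (0.05, adjusted p = 0.956, in a range of -0.40 to 0.05 over arrays left out), of which COX1 and ND6 had not passed the test before. Probe sets near the presence threshold limit what low signals show.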
